A study of Mus musculus with 12 samples.

Results

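Msln, Upk3b, Upk1b, Lrrn4, Wt1, Bnc1, Krt7, Krt8, Krt18 and Krt19 mark mesothelium and simple epithelium, and their RNA levels were followed in the aorta of 12 mice. The 10 genes were chosen by gene name, with the levels of these arrays in view, so their values and differences are given as a description. They are read by 11 probes, of 55675 probes in all. Of the 10 genes, 9 were bright enough to be tested. By their values, 8 of these 9 were higher in BA+DMSO than in DMSO without overlap, beside 14.4% of all tested probes, and Krt18 was not. Of the 8, Wt1 had a BA+DMSO array that was not well above background and so has no settled order there. The same 8 genes split the BA+rapamycin group: all 8 were well above background on replicate 3, within or close to the BA+DMSO range, and Msln alone of them was on replicates 1 and 2.

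The study asked how rapamycin, an inhibitor of the kinase mTOR, acts in a mouse model of aortic dissection. C57BL/6J mice formed 4 groups of 3, sampled on day 3, with 1 array per mouse; the methods give male mice aged 11 to 14 weeks. The DMSO group received dimethylsulfoxide, the vehicle, and the rapamycin group received rapamycin at 2 mg/kg/day. The BA+DMSO group received beta-aminopropionitrile (BAPN, 150 mg/kg/day), an inhibitor of collagen crosslinking, and angiotensin II (AngII, 1 µg/kg/min), with vehicle, and the BA+rapamycin group received both agents with rapamycin. The vehicle group is titled Pre in the record, a word that the study otherwise uses for mice before the challenge, and its day is given as 3 there too. The methods name 10 mm of aorta as the tissue, with no separation of cells, so fewer cells of a type and less RNA per cell cannot be told apart.

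Mesothelium is the sheet of flat cells that lines the pleural, pericardial and peritoneal cavities and covers the organs in them. It is known for carrying features of both epithelium and connective tissue: it forms cell junctions and keratin filaments, yet arises from mesoderm and can leave the sheet as fibroblast-like cells. Keratins are filament proteins that assemble in pairs of a type I chain (Krt18, Krt19) and a type II chain (Krt7, Krt8). Uroplakins, the family of Upk1b and Upk3b, are membrane proteins best known from bladder epithelium, and several are also made by mesothelium.

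A level is given as log2 of the processed signal minus the 75th percentile of its array, so that 0 is the brightness of the probe at that percentile. The arrays of unchallenged mice were brighter: the 75th percentile lay between 221 and 337 in intensity units on the DMSO and rapamycin arrays and between 74.6 and 246 on the BA+DMSO and BA+rapamycin arrays. The dimmest signal called well above background therefore lay at a log2 level of -4.25 to -3.71 on the unchallenged arrays and of -3.95 to -2.28 on the challenged arrays. No spot was saturated. Within each group, arrays correlated at 0.949 to 0.989 over all probes. Slide 1 held the DMSO arrays and rapamycin replicate 1, and slide 2 held the rest. Smooth muscle, endothelial and fibroblast markers were well above background on all 12 arrays (8 of 8, 7 of 7 and 8 of 8 genes).

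The keratin probes are shown because 3 of these genes moved together and the fourth did not, and the sequences let the probes be compared. Each is the 60-base probe of the array, 5′ to 3′, and the capitals mark the longest run it shares with the probe of the other keratin of its type. Probes are placed on mm9: Krt7 at chr15:101253718-101253777, Krt8 at chr15:101828827-101828886, Krt18 at chr15:101862341-101862400 and Krt19 at chr11:100002392-100002451.
Krt7: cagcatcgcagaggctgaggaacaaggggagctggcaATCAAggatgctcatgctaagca
Krt8: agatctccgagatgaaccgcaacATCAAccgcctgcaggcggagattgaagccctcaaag
Krt18: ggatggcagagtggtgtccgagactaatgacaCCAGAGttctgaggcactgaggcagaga
Krt19: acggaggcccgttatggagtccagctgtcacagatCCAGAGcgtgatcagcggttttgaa
The shared run was 5 bases between these Krt7 and Krt8 probes and 6 bases between the Krt18 and Krt19 probes. The Krt8 probe printed is the dimmer of its 2 probes. The brighter one, at chr15:101827138-101827197, gave the Krt8 levels and is not printed; it shared at most 7 bases with the Krt7 probe and 7 with the Krt18 probe. Over all 54 pairs of probes of different genes here, the longest shared run was 9 bases of 60.

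RefSeq promoter windows (GRCm38.p6) were at hand for 6 of the 10 genes. Those of Krt7, Krt8 and Krt18, which lie on the same chromosome, are shown because Krt8 and Krt18 are the classic filament partners and their levels parted in these data. Each window runs from 250 bases before to 30 bases after the annotated start, written 5′ to 3′ on the strand of the gene, and capitals mark motif matches. Krt7 is at chr15:101412153-101412432 (plus strand), Krt8 at chr15:102004313-102004592 (minus strand) and Krt18 at chr15:102027966-102028245 (plus strand).
Krt7: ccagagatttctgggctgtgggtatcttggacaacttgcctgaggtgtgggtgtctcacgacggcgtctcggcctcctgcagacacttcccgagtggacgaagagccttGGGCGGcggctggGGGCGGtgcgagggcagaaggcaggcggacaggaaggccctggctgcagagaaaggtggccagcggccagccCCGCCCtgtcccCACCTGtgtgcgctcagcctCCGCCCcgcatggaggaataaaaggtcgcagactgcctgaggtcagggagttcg
Krt8: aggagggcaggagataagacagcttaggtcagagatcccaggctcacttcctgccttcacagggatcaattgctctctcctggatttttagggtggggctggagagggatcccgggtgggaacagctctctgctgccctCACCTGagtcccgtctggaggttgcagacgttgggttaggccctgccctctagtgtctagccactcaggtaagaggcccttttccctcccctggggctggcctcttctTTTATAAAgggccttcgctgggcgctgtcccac
Krt18: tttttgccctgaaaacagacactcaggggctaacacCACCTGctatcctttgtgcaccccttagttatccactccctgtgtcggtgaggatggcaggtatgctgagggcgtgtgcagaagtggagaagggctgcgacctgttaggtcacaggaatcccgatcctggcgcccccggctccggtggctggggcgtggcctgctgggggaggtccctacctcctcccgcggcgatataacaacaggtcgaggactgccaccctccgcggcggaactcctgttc
Both strands were searched for TATAAA (the TATA box), GGGCGG (the GC box), TGANTCA (an AP-1 site) and CACCTG (an E-box). CACCTG was found in the windows of Krt7, Krt8 and Krt18 and in none of the windows of Upk3b, Lrrn4 and Bnc1; it occurred in 19.1% of 32851 windows of the same length. TATAAA occurred in the Krt8 window alone (13.1% of all windows), in overlapping matches on both strands. GGGCGG occurred 4 times in the Krt7 window and 5 times in the Bnc1 window (34.7% of all windows), and TGANTCA in none of the 6 (7.46%). These are matches of letters in a window.

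**Figure D1:**
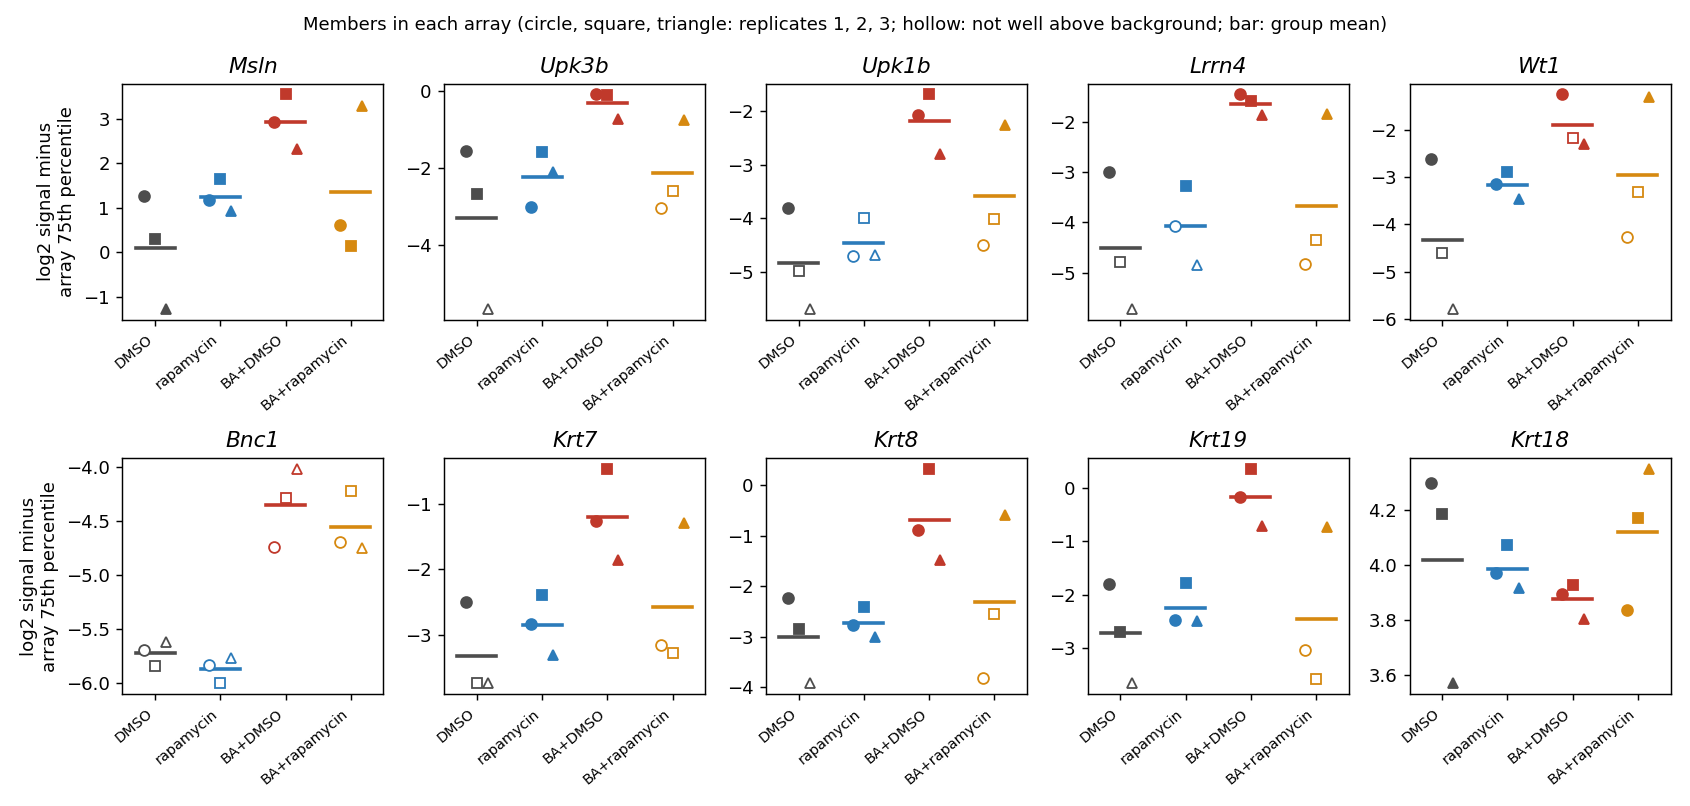
Log2 level (log2 signal minus the array's 75th percentile, vertical axis) of each of the 10 genes in each array by group; circles, squares and triangles are replicates 1, 2 and 3, hollow symbols are not well above background, and bars are group means. In 8 panels BA+rapamycin replicate 3 stands apart from replicates 1 and 2 and near the BA+DMSO arrays, while Krt18 spans only 3.57 to 4.35 and Bnc1 is hollow throughout.

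Msln encodes mesothelin, a surface protein tied to the mesothelial membrane by a lipid anchor, and was the only gene here other than Krt18 to be well above background on all 12 arrays. Its log2 level was 1.27, 0.31 and -1.28 in DMSO replicates 1 to 3, and 1.17, 1.64 and 0.92 in rapamycin. It was 2.94, 3.55 and 2.31 in BA+DMSO, above every unchallenged array. In BA+rapamycin it was 0.61, 0.13 and 3.29. Replicate 3 thus lay inside the BA+DMSO range, and replicates 1 and 2 lay inside the DMSO range. In unscaled intensity these 3 arrays gave 167, 81.6 and 1053, beside 1011, 915 and 1225 in BA+DMSO. Group means were 0.10 ± 1.29 in DMSO and 2.93 ± 0.62 in BA+DMSO (SD, n = 3 each), a 7.13-fold difference (log2 2.83, SE 0.79, adjusted p = 0.0296). The call was lost without DMSO replicate 3, at 2.14 (adjusted p = 0.104), and with dim values of all probes raised to the highest detection limit of the 12 arrays, where the difference stayed 2.83 (adjusted p = 0.0534).

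Upk3b encodes uroplakin 3B, which is made by mesothelium. Its log2 level was -1.56, -2.67 and -5.66 in DMSO and -3.00, -1.58 and -2.11 in rapamycin. It was -0.09, -0.10 and -0.72 in BA+DMSO and -3.03, -2.60 and -0.75 in BA+rapamycin. DMSO replicate 3 and BA+rapamycin replicates 1 and 2 were not well above background, and the BA+DMSO arrays lay above all the others. The BA+DMSO minus DMSO difference was 3.00 (SE 0.90, adjusted p = 0.0388). The call was lost without DMSO replicate 3, at 1.82 (adjusted p = 0.0970), and without DMSO replicate 1 the difference was 3.87 (adjusted p = 0.0200). Upk1b, a uroplakin of the tetraspanin family, had log2 levels of -3.82, -4.97 and -5.68 in DMSO and -4.70, -3.99 and -4.67 in rapamycin. It was -2.08, -1.69 and -2.80 in BA+DMSO, and -4.49, -4.02 and -2.26 in BA+rapamycin. Only DMSO replicate 1, the BA+DMSO arrays and BA+rapamycin replicate 3 were well above background. Unlike for Upk3b, BA+rapamycin replicate 3 lay inside the BA+DMSO range, and BA+DMSO replicate 3 lay below the detection limits of BA+rapamycin replicates 1 and 2 (-2.78 and -2.28), so that it has no order beside them. The difference was 2.63 (SE 0.59, adjusted p = 0.0121), with DMSO measured on 1 of 3 arrays. Upk1b passed the filter on low values through BA+DMSO alone, the group where it is high, so its call is conditioned on that level. With every value under the highest detection limit of the 12 arrays raised to that limit, it was 0.26 (adjusted p = 0.161), and that of Upk3b was 1.74 (adjusted p = 0.0238).

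Lrrn4 encodes a leucine-rich repeat membrane protein. Its log2 level was -1.45, -1.58 and -1.86 in BA+DMSO, a spread of SD 0.21, and -4.82, -4.35 and -1.83 in BA+rapamycin. In DMSO it was -2.99, -4.79 and -5.73, and in rapamycin -4.08, -3.28 and -4.84. BA+rapamycin replicate 3 lay within the narrow BA+DMSO range, and the other arrays of that group were not well above background. The difference between BA+DMSO and DMSO was 2.87 (SE 0.80, adjusted p = 0.0291), with DMSO measured on 1 of 3 arrays. Lrrn4, too, passed the filter through BA+DMSO alone. With dim values raised to the common limit it was 0.66 (adjusted p = 0.0103).

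Wt1 and Bnc1 encode transcription factors. Wt1, a zinc finger factor of the mesothelium and of the kidney podocyte, had log2 levels of -2.61, -4.60 and -5.80 in DMSO and -3.15, -2.89 and -3.45 in rapamycin. They were -1.24, -2.17 and -2.29 in BA+DMSO and -4.28, -3.30 and -1.29 in BA+rapamycin. DMSO replicates 2 and 3, BA+DMSO replicate 2 and BA+rapamycin replicates 1 and 2 were not well above background, so that BA+DMSO replicate 2 has no order beside DMSO replicate 1. Of the measured arrays, BA+DMSO replicates 1 and 3 and BA+rapamycin replicate 3 lay above DMSO replicate 1, the only one measured there. The difference was 2.44 (SE 0.81), and its adjusted p of 0.0556 missed the threshold of 0.05. It was 0.39 with dim values raised to the common limit (adjusted p = 0.448). Bnc1, a zinc finger factor known from keratinocytes and mesothelium, was not well above background on any of the 12 arrays and was not tested. Its log2 values of -6.00 to -5.62 on unchallenged arrays and of -4.75 to -4.02 on challenged arrays have no order, since both lie below the arrays' detection limits.

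Krt19, a small type I keratin of simple epithelium, had log2 levels of -1.80, -2.70 and -3.66 in DMSO and -2.47, -1.78 and -2.50 in rapamycin. In BA+DMSO they were -0.17, 0.36 and -0.71. In BA+rapamycin they were -3.03, -3.59 and -0.72. No BA+rapamycin array reached the BA+DMSO range, although replicate 3 stood next to it; replicates 1 and 2 were not well above background. The BA+DMSO minus DMSO difference was 2.55 (SE 0.67, adjusted p = 0.0237), and 1.95 with dim values raised (adjusted p = 0.0164).

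Krt7, a type II keratin of simple epithelium, had log2 levels of -2.50, -3.74 and -3.75 in DMSO and -2.84, -2.39 and -3.31 in rapamycin. They were -1.26, -0.46 and -1.86 in BA+DMSO, and -3.16, -3.28 and -1.29 in BA+rapamycin. In BA+rapamycin, replicate 3 lay within the BA+DMSO range, and replicates 1 and 2 were not well above background. The difference was 2.13 (SE 0.56, adjusted p = 0.0229), with DMSO measured on 1 of 3 arrays. With dim values raised it was 1.09 (adjusted p = 0.0627).

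Krt8, the type II partner of Krt18, was read by 2 probes. The brighter one gave -2.23, -2.84 and -3.93 in DMSO and -2.76, -2.42 and -3.01 in rapamycin. It gave -0.89, 0.33 and -1.48 in BA+DMSO, and -3.82, -2.55 and -0.58 in BA+rapamycin, where only replicate 3 was well above background. The difference between BA+DMSO and DMSO was 2.32 for the brighter probe (SE 0.74, adjusted p = 0.0466). It gave 1.59 with dim values raised (adjusted p = 0.0669). The dimmer probe was well above background on the 3 BA+DMSO arrays and on DMSO replicate 1 only. It passed the filter through BA+DMSO alone, so its differences are conditioned on that level. On this probe BA+DMSO replicate 3 (-2.94) lay below BA+rapamycin replicate 3 (-2.69), which was not well above background, so no fold is given.

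Krt18, the type I partner of Krt8, went another way. Its log2 level was 4.30, 4.18 and 3.57 in DMSO and 3.97, 4.07 and 3.92 in rapamycin. It was 3.90, 3.93 and 3.81 in BA+DMSO, and 3.84, 4.17 and 4.35 in BA+rapamycin. The groups overlapped, and the BA+DMSO minus DMSO difference was -0.14 (SE 0.21, adjusted p = 0.670). DMSO replicate 3 was nevertheless the lowest of all 12 arrays and BA+rapamycin replicate 3 the highest.

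**Figure D2:**
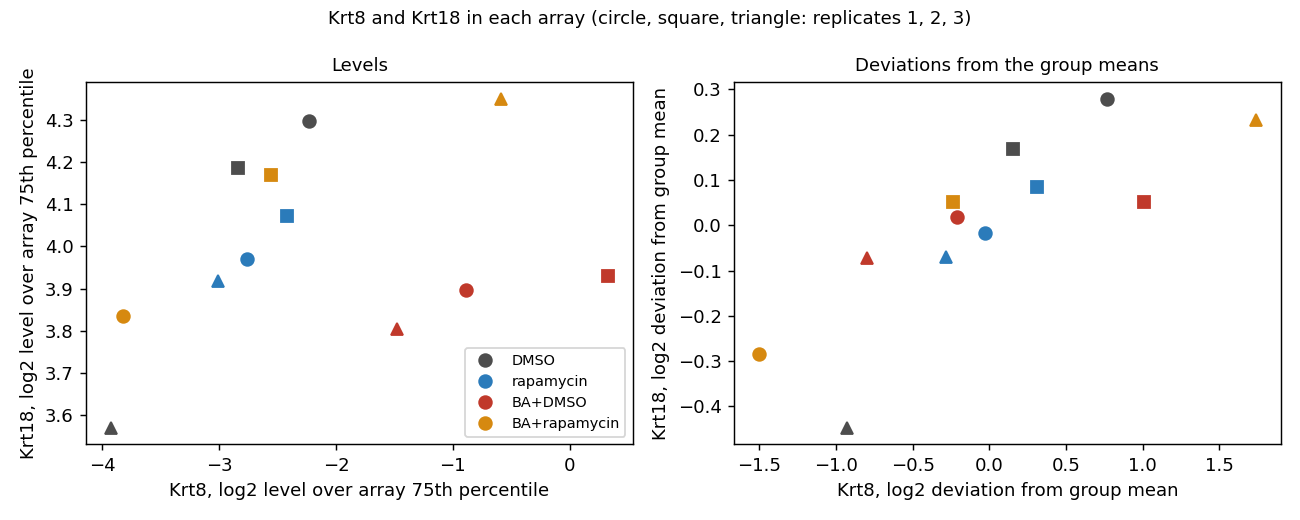
Krt8 (horizontal, brighter probe) against Krt18 (vertical) in the 12 arrays, as log2 levels on the left and as deviations from the group means on the right; colours are groups and symbols replicates. Levels of the pair correlate weakly (r = 0.31), and deviations within groups correlate at r = 0.81.

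Across the 12 arrays, pairs of the 8 genes other than Krt18 and Bnc1 had Pearson correlations of 0.84 to 0.96 (median 0.92, 28 pairs). Krt18 correlated with each of the 8 at 0.14 to 0.44. When each group's mean was taken off, the 8 genes still correlated at 0.67 to 0.99, and Krt18 with them at 0.62 to 0.93. Krt18 thus kept its group means but followed the other genes from mouse to mouse within groups. These correlations are over 12 arrays of 4 groups, share each array's scaling and are given without a test. Averaged over the 8 genes, DMSO replicates 1 and 3 and BA+rapamycin replicate 3 lay furthest from their group means. The correlations were not refitted without them.

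The mean of the 8 genes, each centred on its own mean and values below background included, sums up the arrays. It was 0.16, -1.07 and -2.25 in DMSO and -0.55, 0.10 and -0.69 in rapamycin. It was 1.65, 1.96 and 1.01 in BA+DMSO, and -1.07, -0.76 and 1.50 in BA+rapamycin. The SD was 1.20 in DMSO and 1.40 in BA+rapamycin, beside 0.42 in rapamycin and 0.49 in BA+DMSO. Of the 10 genes, 9, 5 and 2 were well above background on DMSO replicates 1 to 3, and 7, 8 and 7 on the rapamycin arrays. The counts were 9, 8 and 9 on the BA+DMSO arrays and 2, 2 and 9 on the BA+rapamycin arrays. BA+rapamycin replicates 1 and 2 thus had as few measured genes as DMSO replicate 3. Their detection limits were higher, at -2.78 and -2.28 beside -3.71, so equal counts do not mean equal levels. The 75th percentile of BA+rapamycin replicates 1 to 3 was 109, 74.6 and 108 in intensity units, so replicate 3 was about as bright as replicate 1.

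In the comparison of BA+DMSO with DMSO, which asks what the challenge did under vehicle, 7 of the 9 tested genes were called higher and 0 lower. Of the 7, Upk1b and Lrrn4 entered the test only through BA+DMSO, the group where they are high. Over all 27801 tested probes, 9.65% were called higher and 10.8% lower. The groups did not overlap in 8 of the 9 genes, all higher in BA+DMSO and with Wt1 dim on 1 of those arrays, beside 14.4% of all probes that were higher without overlap. Since the genes were chosen with these levels known, nothing is read from the counts. The median difference was 2.55 over the 9 genes and -0.04 over all probes. The calls rested on single arrays: 0 of 9 genes were called without DMSO replicate 2, and 1 (Upk1b) without DMSO replicate 3, BA+DMSO replicate 1 or BA+DMSO replicate 2. The share of all probes called moved too, from 20.5% to 7.13%, 10.8%, 11.2% and 27.9% in that order, while the median difference stayed between 1.93 and 3.14. No slide held both DMSO and BA+DMSO arrays. With slide as a term, estimated from the rapamycin arrays alone, 0 of 9 genes were called at a median difference of 2.27, where only 0.054% of all probes were called. With slide as a random term (consensus correlation -0.13) 8 of 9 were called, beside 36.9% of all probes. Within slide 2, BA+DMSO was above rapamycin replicates 2 and 3 in 8 of the 8 genes other than Krt18, by 1.27 to 2.43, values below background included. These groups differ in rapamycin as well as in challenge, and no share of all probes stands beside that count.

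For BA+rapamycin against BA+DMSO, which asks what rapamycin did under challenge, 0 of the 9 genes were called by limma, beside 0.281% of all probes. That share rested on 1 array: without BA+DMSO replicate 2 it was 39.5%, with 0 of the 9 genes called. Of the 9 genes, 5 had an unadjusted p under 0.05, a count without a matching share of all probes, so nothing is read from it. Among these 5 are Upk1b and Lrrn4, which entered the test only through BA+DMSO, the group where they are high. Differences ran from -2.27 for Krt19 (SE 0.67, adjusted p = 0.137) to -1.06 for Wt1 (SE 0.81, adjusted p = 0.423) in 8 genes, and the difference was 0.24 for Krt18 (SE 0.21, adjusted p = 0.475). Krt19 and Upk3b were lower without overlap, beside 7.57% of all probes. All 6 arrays lay on 1 slide. Without BA+rapamycin replicate 3 the median difference moved from -1.59 to -2.51 and Krt19 alone was called, at -3.14 (adjusted p = 0.0397), beside 0.287% of all probes. The median was -1.09 without BA+rapamycin replicate 1, -1.18 without its replicate 2 and -1.19 without BA+DMSO replicate 2. Each of these left 1 gene at an unadjusted p under 0.05 and 0 called, as did leaving out BA+DMSO replicate 1, at -1.59. Other settings moved the median both ways. It was larger, at -1.85 with quantile normalization and -1.91 with the deposited value table. It was smaller, at -0.22 with normexp background correction, -0.70 with array weights and -0.76 with dim values raised, where Wt1 differed by -0.06 and Upk1b by -0.25. The sample titles carry an 8-digit number, except those of BA+DMSO replicates 2 and 3. The BA+rapamycin and BA+DMSO samples that share one (replicate 1 of each) differed by -3.37 to -1.90 in the 8 genes, values below background included.

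In rapamycin against DMSO, the test of the drug without the challenge, 0 of 9 genes were called and 0 had an unadjusted p under 0.05; 0.0036% of all probes were called. The differences were -0.03 for Krt18 and between 0.27 (Krt8) and 1.17 (Wt1) in the others, with overlapping values in every gene; Upk1b was not well above background on any rapamycin array. Without DMSO replicate 3 the median over the 9 genes moved from 0.47 to -0.06: Msln (0.46), Wt1 (0.44) and Krt7 (0.28) stayed above 0, and the other 5 of the 8 genes turned to between -0.20 and 0. Without DMSO replicate 1 the median was 0.93, and with the title number as a random term 0.86, each with 2 genes at an unadjusted p under 0.05 and 0 called. In the samples that share a title number (replicates 2 and 3 of both groups), rapamycin was above DMSO in 8 of 8 genes by 0.67 to 2.33, values below background included.

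In BA+rapamycin against rapamycin, 0 of 9 genes were called and 0 had an unadjusted p under 0.05, where 41.7% of all probes were called. The differences lay between -0.19 (Krt19) and 0.41 (Krt8) apart from Upk1b, which was measured on 0 of 3 rapamycin and 1 of 3 BA+rapamycin arrays, so that no fold is given. Without BA+rapamycin replicate 3 the median over the 9 genes turned from 0.21 to -0.52, with Krt19 at -1.06 and Msln at -0.88, and 0 were called. With normexp background correction 7 of the 9 genes were called higher, at a setting that called 62.4% of all probes. The interaction is rapamycin's difference under challenge minus that without challenge. It ran from -2.90 (Upk3b, SE 1.28) to -1.87 (Krt7, SE 0.79) in the 8 genes apart from Upk1b, and was 0.27 for Krt18. For Upk1b, not well above background on any rapamycin array, no value is given in this fit. The interaction's median of -2.23 over the 9 genes was -0.26 with normexp background correction and -0.76 with dim values raised, where Wt1 stood at -0.06, Upk1b at -0.25 and Lrrn4 at -0.51. With the title number as a random term it was -3.33, with 8 genes at an unadjusted p under 0.05 and 0 called. In the reported fit limma called 0 of 9 genes for the interaction, beside 0% of all probes, and the lowest adjusted p was 0.737. There 4 genes had an unadjusted p under 0.05. These counts at an unadjusted p have no matching share of all probes, so nothing is read from them. Without BA+DMSO replicate 2, 10.4% of all probes were called for the interaction, and 0 of the 9 genes.

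**Figure D3:**
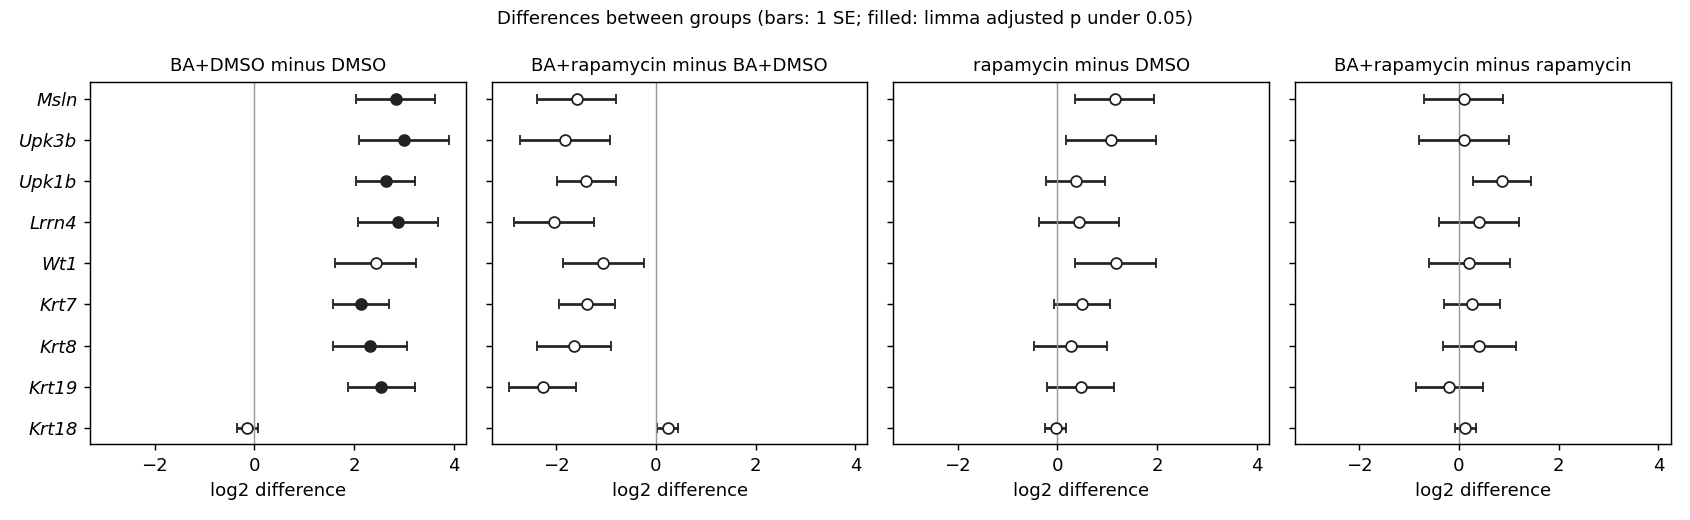
Log2 differences (horizontal) between groups for the 9 tested genes in 4 comparisons; points are limma estimates, bars 1 SE, and filled points have an adjusted p under 0.05. Filled points appear only in BA+DMSO minus DMSO, for 7 genes at 2.13 to 3.00; Upk1b in BA+rapamycin minus rapamycin rests on values that are mostly not well above background.

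BA+rapamycin replicate 3 and DMSO replicate 1, each the highest array of its group in the mean of the 8 genes, share a title number, and so do DMSO replicates 2 and 3 with rapamycin replicates 2 and 3. Within the first number, BA+rapamycin lay above DMSO by 0.81 to 2.01 in the 8 genes. BA+DMSO replicates 2 and 3 carry no such number. With the title number as a random term (consensus correlation 0.50), 8 of 9 genes were called in BA+DMSO against DMSO, beside 19.1% of all probes. In BA+rapamycin against BA+DMSO 0 were called, beside 1.65% of all probes. There 8 genes had an unadjusted p under 0.05, a count without a matching share of all probes, and the median difference was -1.84. Of the 9 genes, Upk1b and Lrrn4 entered the test only through BA+DMSO, the group where they are high. What the number stands for is not given in the sources used here, and its part in the split was not tested.

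A list of 20 further mesothelial genes, written with earlier results of these data known, gave a mixed picture. Of 19 tested, 8 were called higher and 3 lower in BA+DMSO against DMSO, with a median difference of 1.37. The counts of this list and of those that follow stand beside 9.65% of all probes called higher and 10.8% called lower in that comparison. Calb2, which encodes calretinin, was not well above background on any array. Some genes of the list shared the split of BA+rapamycin. Muc16, a membrane mucin of mesothelium and Msln's binding partner, was at 0.82, 1.25 and 0.19 in BA+DMSO and at -2.21, -2.50 and 0.96 in BA+rapamycin. Its difference from DMSO was 2.71 (SE 0.91, adjusted p = 0.0561). Rspo1, a secreted enhancer of Wnt signalling, was at 1.06, 1.70 and 0.71 in BA+DMSO and at -0.13, -0.23 and 1.03 in BA+rapamycin, with a difference of 1.41 (SE 0.41, adjusted p = 0.0342).

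Other genes of that list were high in all challenged arrays. Prg4, which encodes lubricin, was 4.36 higher in BA+DMSO than in DMSO (SE 0.41, adjusted p = 0.000202) and 4.94 higher in BA+rapamycin than in rapamycin (adjusted p = 7.89e-05). Anxa8, an annexin, was 2.77 higher (SE 0.26, adjusted p = 0.000193) and 2.73 higher (adjusted p = 0.000115) in the same comparisons. Aldh1a2, the enzyme that makes retinoic acid, was 2.24 higher in BA+DMSO (SE 0.29, adjusted p = 0.000807) and 1.61 higher in BA+rapamycin (adjusted p = 0.00234). The genes called lower in BA+DMSO were Cdh3, at -1.62, Tbx18, at -1.43, and Gata6, at -0.70. In BA+rapamycin against BA+DMSO 0 of the 19 were called, beside 0.281% of all probes. The median there was -0.47, beside -0.01 over all probes.

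Some markers of other epithelia were at background and others were measured. Over all 55675 probes, 22329 were not well above background on any array. Cdh1 and Epcam, the adhesion molecules that define most epithelia, were not well above background on any array, and neither were Cldn4, Elf3 and Krt23. Of 12 genes of simple epithelial junctions 5 were tested, and Krt80 (1.70, SE 0.24, adjusted p = 0.00122) and Cldn3 (1.56, SE 0.23, adjusted p = 0.00148) were called higher in BA+DMSO. Neither followed the split, at 0.80 and 1.83 on BA+rapamycin replicate 3 beside group means of 0.70 and 1.78. Of the bladder uroplakins, Upk2 and Upk3a were not well above background on any array. Upk1a was measured on all 12 arrays and differed by 0.21 in BA+DMSO against DMSO (adjusted p = 0.670). In BA+rapamycin against rapamycin it was called higher, by 1.25 (adjusted p = 0.0104), where 18.9% of all probes were called higher. Stratified keratins had 3 of 10 genes tested and 0 called in BA+DMSO against DMSO.

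Markers of organs beside the aorta were at background for some genes and measured for others. Lung surfactant genes Sftpc, Sftpb and Sftpa1 were not well above background on any array, nor were Umod, Slc34a1, Kap and Slc12a1 of the kidney or Cyp11a1, Cyp11b1, Cyp11b2, Star and Hsd3b1 of the adrenal gland. Of 7 lung, 9 kidney, 7 liver and 7 adrenal genes, 1, 3, 3 and 2 were tested, and the only call in BA+DMSO against DMSO was Cdh16, a kidney cadherin, at -2.58. Other genes of these lists, named after their values were seen, were well above background on all 12 arrays. Of the liver list, Apoa2 had group means of 1.51 to 1.93, Serpina1a of 0.41 to 0.93 and Tat of -0.83 to 0.18. Of the adrenal list, Nr5a1 had group means of -1.12 to -0.24 and Cyp21a1 of -2.59 to -1.47. Both were called higher in BA+rapamycin against rapamycin, by 0.86 (adjusted p = 0.0406) and 0.95 (adjusted p = 0.0122). In that comparison 18.9% of all probes were called higher and 22.9% lower. Cdh16 was called lower there too, at -1.98 (adjusted p = 0.00552). Aqp2 of the kidney was measured on 11 of 12 arrays. On BA+rapamycin replicate 3, Apoa2 stood at 1.81 beside a group mean of 1.72, Nr5a1 at -0.14 beside -0.24 and Aqp2 at -1.40 beside -1.85. The summed linear level of each list, values below background included, overlapped between DMSO and BA+DMSO for lung and adrenal gland. It was lower in BA+DMSO (0.740 to 1.31) than in DMSO (1.57 to 1.76) for kidney and higher (6.05 to 7.31 beside 4.56 to 5.77) for liver, and the part of these organs in the results was not tested.

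Levels of markers of other cells were compared between the same groups. The summed linear level of 6 macrophage genes ranged from 109 to 139 on DMSO arrays, from 177 to 482 on BA+DMSO arrays and from 368 to 494 on BA+rapamycin arrays, and 5 of the 6 were called higher in BA+DMSO, beside 9.65% of all probes. That of 6 adipocyte genes was 13.8 to 26.2, 26.9 to 139 and 18.6 to 165 in the same order, and the BA+rapamycin arrays overlapped the DMSO arrays. Of 5 tested genes 1, Ucp1, was called higher. It was not well above background on any DMSO array and was at least 5.88-fold higher in BA+DMSO. Of these 2 groups only BA+DMSO, where Ucp1 is high, met the filter on low values for it, so nothing is read from its call. On BA+rapamycin replicate 3, Cd68 of macrophages stood at 2.49 beside a group mean of 2.43, and Adipoq of adipocytes at 1.75 beside 1.65. Deviations of these genes from their group means correlated with those of the mean of the 9 genes at 0.09 to 0.27 for macrophage and -0.29 to 0.03 for adipocyte genes. Of 7 endothelial genes, 3 were called higher in BA+DMSO and 0 lower. The summed linear level of the 7 was 52.7 to 66.3 on DMSO arrays, 81.0 to 102 on BA+DMSO arrays and 76.8 to 126 on BA+rapamycin arrays. Kdr (1.28, adjusted p = 0.0154), Emcn (1.40, adjusted p = 0.0227) and Tie1 (0.93, adjusted p = 0.0416) were those called, while Pecam1 differed by -0.28 (adjusted p = 0.492) and Tek by -0.28 (adjusted p = 0.603). On BA+rapamycin replicate 3, 6 of the 7 stood above their group mean: Cdh5 at 2.46 beside 1.55, Pecam1 at 1.94 beside 1.21 and Emcn at 0.65 beside 0.01, for example. The exception was Kdr, at 4.41 beside 4.50. Their deviations from group means correlated with those of the mean of the 9 genes at 0.05 (Kdr) to 0.68 (Pecam1). Among 8 fibroblast genes, Cd34, which endothelium makes too, was the only one called higher (0.67, adjusted p = 0.0384), and its deviations correlated at 0.70. The part of these cells in the levels of the mesothelial genes was not tested.

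Filament and junction genes near the keratins changed in both directions. Among 5 other intermediate filament genes, Lmna, of the nuclear lamina, rose by 0.80 (SE 0.19, adjusted p = 0.0171) in BA+DMSO, Synm, a muscle filament gene, fell by 0.97 (SE 0.19, adjusted p = 0.00741), and Vim differed by 0.04. Of 6 tested desmosome and plakin genes, Plec (0.89, adjusted p = 0.00818) and Pkp2 (0.82, adjusted p = 0.0408) were higher and Dsp, the anchor of keratin to desmosomes, fell by 2.35 (SE 0.40, adjusted p = 0.00336). Factors tied to the loss of epithelial form split too: Snai1 rose by 2.06 (SE 0.37, adjusted p = 0.00421), Tgfb1 by 0.81 (adjusted p = 0.0328), and Zeb1 fell by 1.05 (SE 0.27, adjusted p = 0.0226), of 6 tested. Of 5 tested factors related to Wt1 and Bnc1 by family or tissue, Tbx18 and Gata6 were lower, as in the mesothelial list, and Bnc2 differed by 0.34 (adjusted p = 0.702).

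The tested gene whose levels were most like the mean of the 9 genes over the 12 arrays was Rspo1 (r = 0.973). It was followed by Chst4, a sulfotransferase, at 0.961, Muc16 at 0.958, 1600029D21Rik at 0.957, Cyp2s1, a cytochrome P450, at 0.956, AI661453 at 0.952 and Cxadr, a tight junction receptor, at 0.949. Cgn, which encodes the tight junction protein cingulin, stood at 0.916, Myo5b, a vesicle motor, at 0.915, and Pcnxl2 at 0.903. With the group means taken off, Muc16 led at 0.961, and 7 of these 10 genes were again among the first 10. Of single genes, Msln was most like Muc16 (0.978), Upk3b like Chst4 (0.958), and Upk1b and Lrrn4 like Cxadr (0.978 and 0.966). Krt7 was most like Rspo1 (0.972), Krt8 and Krt19 like Cyp2s1 (0.966 and 0.970) and Wt1 like 1600029D21Rik (0.920). Krt18 reached only 0.772, with Sept5, over the arrays, and 0.960, with Cyb5r2, once group means were taken off. Cxadr was measured on 3 of the 12 arrays and Cyb5r2 on 5, so these likenesses include values below background.

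**Figure D4:**
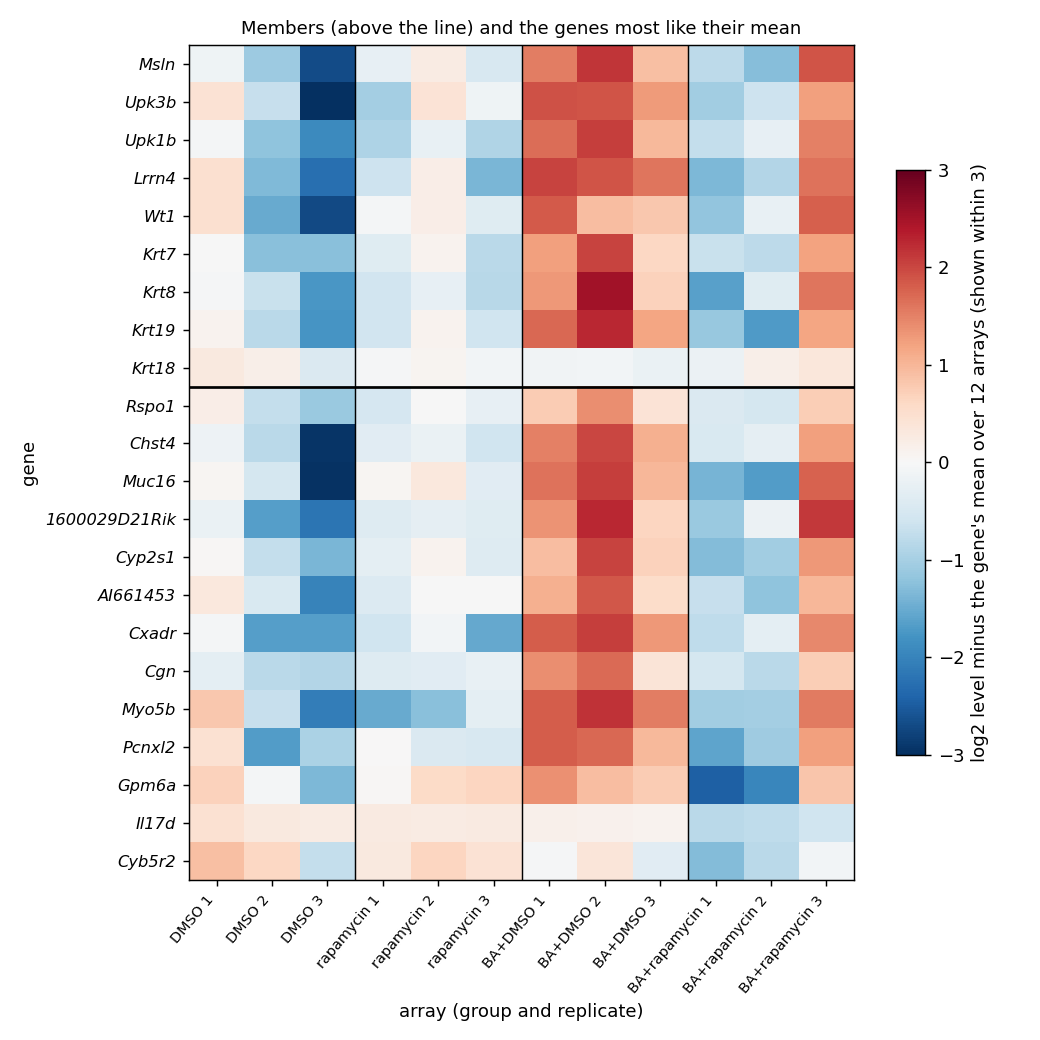
Log2 level minus each gene's own mean over the 12 arrays (colour, limited to 3 either way) for the 9 tested genes above the line and the genes most like their mean below it; columns are arrays by group and replicate. BA+DMSO columns and BA+rapamycin replicate 3 are red in 8 of the 9 genes and in most of the genes below the line, and DMSO replicate 3 is the bluest column.

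Cxadr was not well above background on any array outside BA+DMSO, and was at least 3.04-fold higher there than in DMSO. Chst4 was 2.83 higher in BA+DMSO than in DMSO (SE 0.64, adjusted p = 0.0124) and 1600029D21Rik 2.77 higher (SE 0.75, adjusted p = 0.0251). Cgn was 1.82 higher (SE 0.41, adjusted p = 0.0120), with DMSO measured on 1 of 3 arrays. Cgn and Cxadr passed the filter on low values through BA+DMSO alone, the group where they are high, so their differences are conditioned on that level. All genes of this paragraph were picked for their likeness to the 9 genes, and their differences follow from that choice.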

How the data were processed

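RNA of 12 aortas was labelled with Cy3 and hybridised to 1-colour Agilent mouse arrays. The deposited scanner files, read with Feature Extraction 10.7.1.1 per the file headers (9.5.1.1 in the submitters' processing notes), hold the intensity of each spot, linear and background-subtracted but without any scaling across arrays, and were the basis here. The authors' deposited value table holds quantile-normalized intensity, as its values show (correlation with a quantile normalization of the scanner signal of at least 0.9999), and served as an alternative. The authors' normalization is not given in the sources used here. The files give no sequence depth; the number of arrays limits the precision.

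Processed signals were put on the log2 scale, flagged outlier spots dropped, spots averaged per probe, 6 of 55681 probes without a value on every array left out, and each array's 75th percentile subtracted. Probes entered the test when, in some group, all 3 arrays had a share of 0.5 or more of the spots well above background, which left 27801. One limma 3.58.1 model (R 4.3.3) held the 4 group means. Tests were two-sided, p-values were Benjamini-Hochberg adjusted over all tested probes within each of 5 contrasts, and a call is an adjusted p under 0.05. The fit was tested on simulated data. Counts of genes at an unadjusted p under 0.05 have no share of all probes at that threshold beside them, so nothing is read from them. A gene stands by its tested probe with the highest mean. A fold against a group without any array well above background is a lower bound, from the dimmest measured signal of each array.

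Samples were grouped by treatment labels, and replicates numbered in accession order. The sample titles, except those of BA+DMSO replicates 2 and 3, also carry numbers, some shared between groups, whose meaning is not given in the sources used here. The genes and lists were chosen with earlier results of these data known. All 10 genes and up to 3 called genes of each list were named (all of lists of 5 or fewer), with the 10 most like genes for the mean and 3 for each gene. Symbols follow the array files, and RefSeq's table holds all 10. Alternatives were other scalings and backgrounds, other filters, slide, title number and brightness as terms, array weights, and each array left out.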

Additional observations from a re-analysis of the deposited data

How the results depend on the processing

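In BA+DMSO against DMSO, 7 of 9 genes were called. The count was 4 with quantile normalization (19.7% of all probes called), 4 with the deposited value table (19.6%), 4 of 10 with no filter (7.65%; Bnc1 among them, although below background) and 4 of 8 with only the 2 groups fitted (5.26%). It was 3 with dim values raised to a detection limit common to all arrays (19.9%), an alternative chosen after seeing the data, which takes the median difference to 1.09. It was 1 of 2 among probes measured on all arrays (24.3%). It was 0 with slide as a term (0.054%), with array weights (0.403%), whose estimate did not converge, and with brightness as a covariate (18.3%). The median difference was 2.27, 2.39 and 2.53 in these fits, in that order, beside 2.55 in the reported fit. With brightness 7 genes had an unadjusted p under 0.05, a count without a matching share of all probes. The count was 8 with normexp background correction (23.7%), with slide as a random term (36.9%) and with the title number as a random replicate block (19.1%), beside 20.5% of all probes in the reported fit. Leaving out 1 array gave 0 to 8 (7.13% to 38.0%). All differences kept their sign in this comparison and in BA+rapamycin against BA+DMSO under every alternative run. In BA+rapamycin against BA+DMSO, 0 genes were called (0.281% of all probes). The count was 1 (0.173%) by the threshold of the study's methods, an unadjusted p under 0.01 with a fold over 4 or under 0.25. With 1 array left out it was 0 to 1 (0.0993% to 39.5%). In BA+rapamycin against rapamycin the count was 7 with normexp background correction (62.4% of all probes called), where Krt19 turned to 0.62. It was 1 with no filter (Bnc1, although below background), where 53.3% of all probes were called. Signs turned in 31 of 234 values of this comparison. For rapamycin against DMSO, 17 of 234 values turned sign or fell to 0, and no alternative gave a call of these genes. Those at 0 were Upk1b, Wt1, Lrrn4 and Krt7 with dim values raised. The cause of these shifts was not tested. Replicate numbers follow accession order and pair no mice, so the title number was the block taken from the labels; with it, 0 genes were called in the other 4 comparisons. Dim signal limits the values: on BA+rapamycin replicates 1 and 2 only Msln and Krt18 were well above background.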
